A study of Homo sapiens with 6 samples.

Results

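The genes described here are the core of the machinery that carries a human cell out of G1: the D-type cyclins CCND1, CCND2 and CCND3, their kinases CDK4 and CDK6, the E-type cyclins CCNE1 and CCNE2, their kinase CDK2, the pocket protein gene RB1 and the transcription factor gene E2F1. They were taken by gene name from the deposited count table, which holds 21494 genes, and all 10 were found there. Positions are those of the table, on the human genome build hg38. RNA-seq had been performed on 6 samples, 3 labelled as G361 cells carrying a control shRNA (Control sh, genotype given as WT) and 3 as G361 cells carrying an shRNA against DCAF1 (VprBP sh, genotype given as DCAF1 knockdown). DCAF1 encodes VprBP, a substrate receptor of a cullin ubiquitin ligase that the study describes as a histone H2A kinase. The shRNA was delivered by lentivirus and the cells were kept under puromycin selection; whether the samples came from separate cultures is not stated, so the p-values measure the spread between these samples, which may be technical. G361 is a human melanoma line, but the source name in the labels is LD611, which is known as a bladder cancer line.

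As background, mitogens induce D-type cyclins, which bind CDK4 or CDK6 and begin to phosphorylate the RB1 protein. Unphosphorylated RB1 holds E2F factors, E2F1 among them, in a repressed state on the promoters of S-phase genes. Once RB1 is phosphorylated, E2F factors switch on CCNE1 and CCNE2, whose products drive CDK2 and complete the transition, and they also act on the E2F1 promoter itself. INK4 proteins, which CDKN2A, CDKN2B, CDKN2C and CDKN2D encode, bind CDK4 and CDK6 and block them. The CIP/KIP proteins, encoded by CDKN1A, CDKN1B and CDKN1C, act mainly on CDK2. In melanoma and in many other cancers this axis is known for loss of CDKN2A or RB1 and for gain of CCND1 or CDK4.

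Promoter sequences are shown for the 4 genes of the set whose entry in the RefSeq table (GRCh38.p14) starts at the start of the GENCODE canonical transcript, so that the letters of sites for E2F and for more general factors can be read beside the expression values. Each is the 250 bases before the start, 5′ to 3′ on the strand of the gene. CCND1, CCND2 and CDK2 have no entry, those of CCND3 and RB1 start elsewhere in the gene and were not used, and CCNE2 is not shown. In E2F1 the capitals mark letters of an E2F site (TTTCGCGC, TTTGGCGC, TTTCCCGC or TTTGCCGC on either strand), in CDK4 those of the E-box CACGTG, the site of MYC-family factors, and in CDK6 and CCNE1 those of the GC box GGGCGG on either strand, the site of SP-family factors.
E2F1, chr20:33686386-33686635, minus strand: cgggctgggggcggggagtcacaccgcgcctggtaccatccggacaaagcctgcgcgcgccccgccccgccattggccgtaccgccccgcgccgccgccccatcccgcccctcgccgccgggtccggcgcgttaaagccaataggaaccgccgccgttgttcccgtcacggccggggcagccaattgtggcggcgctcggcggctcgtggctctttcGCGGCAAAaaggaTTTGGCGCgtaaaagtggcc
CCNE1, chr19:29811741-29811990, plus strand: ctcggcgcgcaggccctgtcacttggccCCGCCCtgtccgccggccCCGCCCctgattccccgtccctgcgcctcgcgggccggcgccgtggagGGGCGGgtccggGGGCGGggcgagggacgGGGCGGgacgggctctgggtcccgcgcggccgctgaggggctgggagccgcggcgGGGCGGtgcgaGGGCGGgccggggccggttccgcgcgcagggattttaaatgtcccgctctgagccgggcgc
CDK4, chr12:57752311-57752560, minus strand: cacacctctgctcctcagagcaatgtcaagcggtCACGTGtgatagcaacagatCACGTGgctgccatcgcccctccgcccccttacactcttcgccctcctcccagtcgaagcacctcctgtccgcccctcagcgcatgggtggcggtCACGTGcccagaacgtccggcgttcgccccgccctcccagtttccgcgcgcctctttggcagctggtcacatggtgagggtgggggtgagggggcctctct
CDK6, chr7:92836574-92836823, minus strand: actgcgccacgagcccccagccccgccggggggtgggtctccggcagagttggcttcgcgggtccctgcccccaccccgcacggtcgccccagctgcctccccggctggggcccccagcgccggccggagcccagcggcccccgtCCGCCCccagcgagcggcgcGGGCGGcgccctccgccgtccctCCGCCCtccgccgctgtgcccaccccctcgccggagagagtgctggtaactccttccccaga
The E2F1 promoter held the E2F letters at 2 places, GCGGCAAA from 33 to 26 bases and TTTGGCGC from 20 to 13 bases before the start, and it was the only promoter of the 4 that held any. Of 35116 promoters of the same length in the table, 2.79% held such letters. CDK4 held 3 E-boxes, which 6.34% of promoters hold at least once, and the other 3 promoters held none. GC boxes, present in 42.6% of promoters, were found 7 times in CCNE1, 5 times in E2F1 and 3 times each in CDK4 and CDK6. None of the matches overlapped another. A match of letters is a description of the sequence and not a site shown to be bound.

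The authors deposited estimated counts, which totalled 18195949 to 26883948 per sample. After rounding and upper quartile scaling they were compared by the quasi-likelihood test of edgeR over 16756 genes, all 10 genes of the set included. A gene is said to have risen, fallen or been called when its Benjamini-Hochberg adjusted p-value was under 0.05 and its fold change over 2, and values are normalized counts, which say how much RNA a sample held relative to the others but not how many cells carried it: fewer cells of a type and less RNA per cell cannot be told apart. The groups differed widely, with 46.4% of genes called, 24.5% higher and 22.0% lower in VprBP sh, 76.4% under the p-value threshold whatever their fold, and 79.5% without overlap between the 3 values of each group. In all, 256 genes that averaged 100 or more normalized counts in Control sh had 0 counts in every VprBP sh sample, and 87 genes showed the reverse. In both groups replicates 2 and 3 were closer to each other (chi-square per degree of freedom 2.45 in Control sh and 2.32 in VprBP sh) than to replicate 1 (16.1 to 26.6), and the test of the 10 genes was also run with replicates 2 and 3 summed as 1 sample, which gave the same number of calls, 6. DCAF1 itself had 797, 971 and 838 normalized counts in the Control sh samples and 760, 507 and 481 in the VprBP sh samples. Its groups did not overlap, though VprBP sh replicate 1 was only just below the Control sh range, and the difference (log2 fold change -0.58, standard error 0.17, adjusted p = 0.0125) was under 2-fold.

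Markers of the cell type named in the labels were absent or low in both groups. Of 8 melanocyte markers, SOX10, TYR, DCT and S100B had no row in the table, MLANA and TYRP1 had at most 5 counts in any sample, and MITF and PMEL were the only ones tested, neither being called; the summed level of the list was 199 to 236 normalized counts in the Control sh samples and 244 to 308 in the VprBP sh samples. Of 10 urothelial markers, looked at because of the name LD611, 8 had a row and 7 were tested, with 1 called higher and 4 lower. Of all genes, 24.5% were called higher and 22.0% lower. The summed level of the urothelial markers was 104010 to 113738 in the Control sh samples and 25246 to 28468 in the VprBP sh samples. Most of that sum was the keratin genes KRT5 (mean 64989 in Control sh and 3488 in VprBP sh) and KRT7 (35085 and 21576). The uroplakin genes with a row averaged only 2.44 (UPK1A) to 650 (UPK1B) normalized counts in Control sh. TP63, a basal epithelial factor, averaged 8929 ± 1015 (SD, n = 3) in Control sh and 9.44 ± 0.98 in VprBP sh on the normalized scale. GATA3, a luminal factor, averaged 1529 ± 205 in VprBP sh and had 7, 1 and 0 counts in Control sh. It was the only marker of the list called higher. Besides TP63 and KRT5, the uroplakin genes UPK1B (650 normalized counts to 0) and UPK2 (211 to 43.6) were called lower. UPK3B (399 to 716) and KRT7 were not called. GATA3 passed edgeR's filter on low counts through the VprBP sh samples alone, and UPK1B through the Control sh samples alone, so their direction was fixed. TP63, at 9, 8 and 13 counts in the VprBP sh samples, would not have passed on those samples alone. The count of calls is therefore a description. Of 6 markers of blood, endothelial and connective tissue cells 4 had a row, PTPRC and CD3E having none, and VWF was the single one called, lower in VprBP sh; their sum was 821 to 928 in the Control sh samples and 485 to 627 in the VprBP sh samples. The levels of the called markers, most of them urothelial, differed between the groups as those of the called G1 genes did. The part of the markers in the results below was not tested. The labels give G361 as the cell line of both groups, beside the source name LD611, but these values do not show that both groups came from the same line. A difference of line and an effect of the shRNA cannot be told apart in these samples.

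Of the 10 genes, 4 fell in VprBP sh (CCND1, CCND2, CDK6 and RB1), 2 rose (CCNE1 and CCNE2) and 4 were not called (CCND3, CDK4, CDK2 and E2F1). The 6 calls stand against a background of 46.4% of all genes (24.5% higher and 22.0% lower), and 9 of the 10 had an adjusted p-value under 0.05 and 9 had no overlap between groups, against 76.4% and 79.5%. With so large a background the counts alone do not set these genes apart. The median log2 fold change of the 10 was -0.50, against 0.08 over all genes tested. Their summed level was 129566 to 138699 normalized counts in the Control sh samples and 12135 to 14413 in the VprBP sh samples, and CCND1 made up the largest part of it in every sample.

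**Figure D1:**
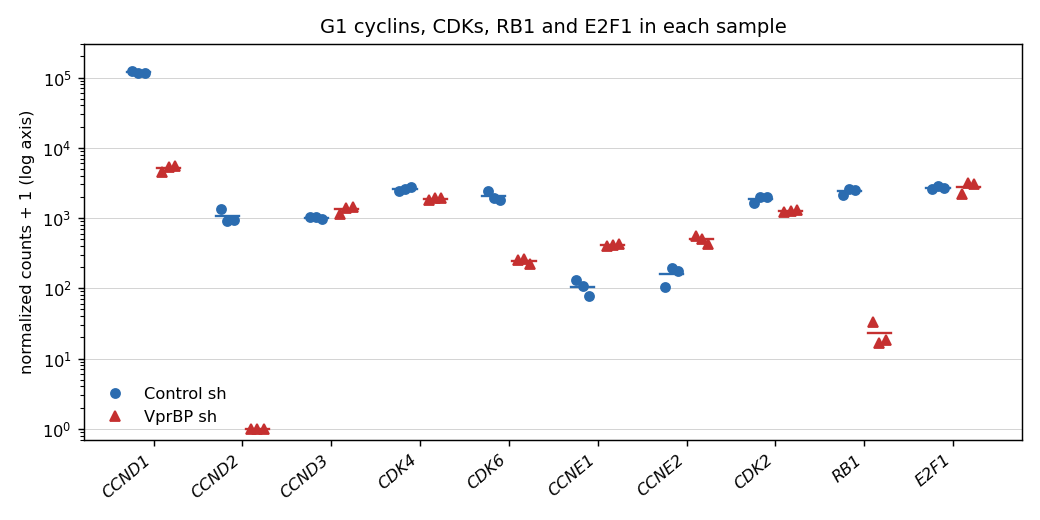
Normalized counts plus 1 (log axis) of the 10 genes in each of the 3 Control sh samples (blue circles) and 3 VprBP sh samples (red triangles), with the group mean as a bar. CCND2 had 0 counts in every VprBP sh sample, RB1 and CCND1 fell furthest among the genes still detected, and E2F1 is the one gene whose groups overlap.

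D-type cyclins are the part of the pathway that senses growth factors. CCND1 (ENSG00000110092.4), at chr11:69641156-69654474 on the plus strand, had 124920, 117061 and 115665 normalized counts in the Control sh samples and 4532, 5391 and 5591 in the VprBP sh samples. Every VprBP sh sample was thus far below every Control sh sample (log2 fold change -4.53, standard error 0.11, adjusted p = 1.65e-09). By mean normalized count per kilobase CCND1 ranked 13 of 21460 genes in Control sh and 740 in VprBP sh, and its share of all counts went from between 0.491% and 0.520% to between 0.0223% and 0.0271%. CCND1 was thus among the most abundant RNAs of the Control sh samples and no longer so in VprBP sh. It overlaps LTO1 on the opposite strand, and since the sources do not state whether reads were counted by strand, reads of the shared stretch cannot be told apart.

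CCND2 (ENSG00000118971.9), at chr12:4269771-4305353 on the plus strand, had 1335, 895 and 950 normalized counts in Control sh and 0 counts in all 3 VprBP sh samples. Set against a floor of 3 counts in each sample, which covers counting error only, it was at least 363-fold lower. CCND2 passed edgeR's filter on low counts through the Control sh samples alone, so its call is given as a description with no p-value, and of the 9 other genes 5 were called. CCND3 (ENSG00000112576.13), at chr6:41934934-42050357 on the minus strand, had 1029, 1022 and 973 normalized counts in the Control sh samples and 1147, 1379 and 1439 in the VprBP sh samples. No VprBP sh value was as low as the highest Control sh value, but the difference of 0.39 on the log2 scale (95% interval 0.16 to 0.63, adjusted p = 0.00653) stayed under 2-fold. The D-type cyclins therefore parted, with CCND1 and CCND2 lower and CCND3 not.

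CDK4 and CDK6 encode the catalytic partners of these cyclins. CDK6 (ENSG00000105810.10), at chr7:92604921-92836573 on the minus strand, had 2434, 1906 and 1776 normalized counts in the Control sh samples and 248, 258 and 219 in the VprBP sh samples. It fell 8.46-fold, from 2038 ± 349 to 241 ± 20 (log2 fold change -3.08, standard error 0.14, adjusted p = 5.98e-08). CDK4 (ENSG00000135446.17), at chr12:57747727-57756013 on the minus strand, had 2424, 2573 and 2768 normalized counts in the Control sh samples and 1776, 1947 and 1952 in the VprBP sh samples. Its groups were separate too, but by 0.45 on the log2 scale in the lower direction (log2 fold change -0.45, 95% interval -0.64 to -0.26, adjusted p = 0.000788), an interval that does not reach 2-fold. The kinases thus differed in that CDK6 passed the 2-fold limit and CDK4 did not. CDK4 overlaps the protein-coding genes TSPAN31 and MARCHF9, while CDK6 overlaps none.

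The E-type cyclins moved the other way. CCNE1 (ENSG00000105173.14), at chr19:29811991-29824312 on the plus strand, had 132, 105 and 76.8 normalized counts in the Control sh samples and 396, 408 and 422 in the VprBP sh samples. It rose 3.93-fold (log2 fold change 1.97, standard error 0.19, adjusted p = 7.24e-06), and it overlaps no other gene. CCNE2 (ENSG00000175305.18), at chr8:94879770-94896678 on the minus strand, had 103, 193 and 173 normalized counts in the Control sh samples and 562, 506 and 432 in the VprBP sh samples. Both genes were above their own Control sh range in every VprBP sh sample. The rise of CCNE2 was 3.18-fold (log2 fold change 1.67, standard error 0.21, adjusted p = 6.22e-05), and its gene overlaps INTS8 and NDUFAF6. CDK2 (ENSG00000123374.11), the kinase these cyclins activate, lies at chr12:55966781-55972789 on the plus strand and had 1623, 1965 and 1965 normalized counts in the Control sh samples and 1219, 1277 and 1308 in the VprBP sh samples. CDK2 was not called, with a log2 fold change of -0.55 (95% interval -0.77 to -0.33, adjusted p = 0.000588), so that the level of the kinase was slightly lower where its cyclins were higher. The gene overlaps PMEL on the opposite strand.

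RB1 encodes the protein that the cyclin-dependent kinases inactivate. At chr13:48303744-48599436 on the plus strand, RB1 (ENSG00000139687.16) had 2111, 2611 and 2538 normalized counts in Control sh and 32.4, 15.6 and 17.6 in VprBP sh, from 29, 15 and 23 counts. It fell 113-fold, the largest fall among those of the 10 genes that were detected in both groups (log2 fold change -6.82, standard error 0.21, 95% interval -7.29 to -6.34, adjusted p = 5.44e-09). RB1 was therefore near but not at the floor of 3 counts in VprBP sh. LPAR6, which lies inside RB1 on the opposite strand, had 5, 13 and 11 counts in Control sh and 0 in every VprBP sh sample, and RCBTB2, which overlaps its far end, had 143 to 201 and 4 to 8 counts.

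E2F1 (ENSG00000101412.13), the factor that the RB1 protein binds, lies at chr20:33675477-33686385 on the minus strand and overlaps no other gene. It had 2588, 2857 and 2681 normalized counts in the Control sh samples and 2223, 3110 and 3033 in the VprBP sh samples. VprBP sh replicate 1 lay below all Control sh samples and replicates 2 and 3 above them, so that the groups overlapped (log2 fold change 0.043, 95% interval -0.24 to 0.32, adjusted p = 0.768). The sign of this value depended on the scaling, since it was -0.055 with TMM factors and -0.078 with DESeq2. Without VprBP sh replicate 1 the value was 0.18 with an adjusted p-value of 0.0344 in edgeR, still under 2-fold. Relative to the median of all genes, which library size scaling moved from 0.08 to 0.29 and DESeq2 to -0.04, E2F1 stood between -0.040 and -0.041 in each of these scalings, and CCND3, CDK4 and CDK2 stood at 0.31, -0.54 and -0.63.

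Levels of different genes were compared as normalized counts per kilobase of merged exons. In Control sh the order was CCND1 at 25040 ± 1048, E2F1 at 1007 ± 51, CDK4 at 837 ± 56, CDK2 at 476 ± 51, RB1 at 376 ± 42, CCND3 at 175 ± 5, CDK6 at 167 ± 28, CCND2 at 133 ± 30, CCNE1 at 42.6 ± 11.2 and CCNE2 at 35.6 ± 10.8 (SD, n = 3). The samples of CCND3 and CDK6, of CDK6 and CCND2, and of CCNE1 and CCNE2 overlapped, so that these neighbours in the order do not differ beyond their spread. In VprBP sh the order per kilobase was CCND1 at 1086 ± 118, E2F1 at 1037 ± 183, CDK4 at 611 ± 32, CDK2 at 326 ± 12, CCND3 at 229 ± 27, CCNE1 at 166 ± 5, CCNE2 at 114 ± 15, CDK6 at 19.7 ± 1.7, RB1 at 3.40 ± 1.42 and CCND2 at 0. There the samples of CCND1 and E2F1 overlapped and those of no other neighbours in the order did. RB1 thus went from place 5 to place 9 and CCNE1 from place 9 to place 6. With the length of the canonical transcript in place of merged exons, CDK4 stood above E2F1 and CCNE2 above CCNE1 in Control sh, and CCND3 above CDK2 in VprBP sh, the last 2 pairs with overlapping samples.

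Within families, CCND1 held 98.8% ± 0.1 (SD, n = 3) of the D-type cyclin counts per kilobase in Control sh and 82.6% ± 0.1 in VprBP sh, while CCND3 went from 0.691% to 17.4% and CCND2 from 0.521% to 0. The share of CCND3 in VprBP sh depends on the exon length used, at 34.8% with the canonical transcript, which is much shorter than its merged exons. The summed level of the D-type cyclins went from 25348 ± 1081 to 1316 ± 145 per kilobase. CDK6 held 16.7% ± 3.2 of the CDK4 and CDK6 counts per kilobase in Control sh and 3.13% ± 0.34 in VprBP sh, and their sum went from 1003 ± 32 to 631 ± 32. The D-type cyclins were thus far above their kinases per kilobase in Control sh and nearer to them in VprBP sh. For the E-type cyclins the sum went from 78.2 ± 8.2 to 280 ± 9, with CCNE1 at 54.4% ± 13.4 and 59.5% ± 3.9, a difference smaller than the spread in Control sh.

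**Figure D2:**
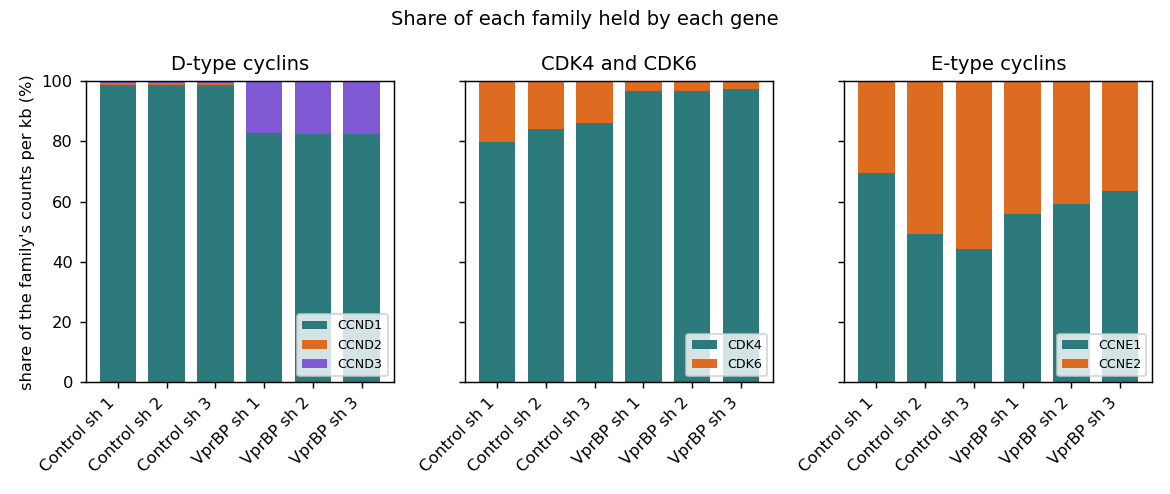
Share, in percent, of the normalized counts per kilobase of merged exons held by each gene of the D-type cyclins, of CDK4 and CDK6, and of the E-type cyclins, as stacked bars for each of the 6 samples. CCND3 makes up 17.3% to 17.5% of the D-type cyclin level in VprBP sh and under 1% in Control sh, CDK6 shrinks to 2.75% to 3.41%, and the split between CCNE1 and CCNE2 varies most among the Control sh samples.

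Ratios within a sample do not depend on scaling between samples, and 4 of them were tested with an exact two-sided permutation test, for which 0.1 is the smallest p-value that 3 samples against 3 can give. The log2 ratio of CCND1 to CCND3 counts was 7.20, 7.12 and 7.17 in Control sh and 2.26, 2.24 and 2.23 in VprBP sh, a difference of -4.92 (exact p = 0.1, adjusted over the 4 ratios 0.133). That of CDK6 to CDK4 was -1.98, -2.42 and -2.62 in Control sh and -4.83, -4.90 and -5.14 in VprBP sh, a difference of -2.62 (exact p = 0.1, adjusted 0.133). For both ratios the groups were separate. The log2 ratio of CCND2 to CCND1 differed by -3.97 when CCND2 was set to the floor of 3 counts in VprBP sh, which makes it a lower bound on the size of the difference. This ratio is counted among the 4 of the adjustment. Its own p-value is left out, because CCND2 passed the filter on low counts through the Control sh samples alone. The ratio of CCNE2 to CCNE1 went from -0.28 ± 0.81 to -0.56 ± 0.24 on the log2 scale, with overlapping samples (exact p = 0.7, adjusted 0.7). These ratios used counts per kilobase, which shifts a ratio equally in all samples.

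Of the 7 genes of CDK inhibitors, 4 were called higher, 1 lower and 2 not, where 24.5% of all genes were called higher and 22.0% lower. The median of the list was 1.26 on the log2 scale against 0.08 over all genes. CDKN2A and CDKN2B are among the 4 and could only be called higher, so the count and the median cannot be weighed against all genes. Of the others, CDKN2C and CDKN2D were called higher, CDKN1A lower, and CDKN1B and CDKN1C not. CDKN2A, the gene of p16INK4A and p14ARF, had 0 counts in all 3 Control sh samples and 2299, 3615 and 3406 normalized counts in VprBP sh, at least 973-fold higher. Its neighbour CDKN2B, the gene of p15INK4B, likewise had 0 counts in the Control sh samples and 682, 807 and 780 normalized counts in the VprBP sh samples, at least 237-fold higher. Both passed the filter on low counts through the VprBP sh samples alone, and the absence of CDKN2A from Control sh was known when the genes were chosen, so no p-value is given for them. RNA of both was therefore not detected where RB1 RNA was abundant and was abundant where RB1 RNA was near the floor. Per kilobase of merged exons CDKN2A reached 800 ± 182 in VprBP sh, between E2F1 and CDK4 in the order above, but with the canonical transcript it reached 3176, above CCND1 at 1220.

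The other INK4 genes, which lie on other chromosomes, were detected in both groups. CDKN2C, the gene of p18INK4C, had 134, 166 and 191 normalized counts in the Control sh samples and 1623, 1911 and 1917 in the VprBP sh samples, a rise of 11.1-fold (adjusted p = 3.06e-08). CDKN2D, the gene of p19INK4D, rose 2.39-fold, from 393 ± 34 to 939 ± 52 (SD, n = 3, adjusted p = 3.70e-06). All 4 INK4 genes were thus higher in VprBP sh, 2 of them from 0 counts in Control sh. Of the CIP/KIP genes, CDKN1A, the gene of p21 and a target of p53, had 3489, 2228 and 2204 normalized counts in the Control sh samples and 241, 291 and 304 in the VprBP sh samples. It fell 9.44-fold (log2 fold change -3.24, standard error 0.20, adjusted p = 3.53e-07). CDKN1B, the gene of p27, had 1277 ± 91 and 1243 ± 42 normalized counts (log2 fold change -0.04, 95% interval -0.24 to 0.16, adjusted p = 0.702), a value that turned positive, to 0.17, with library size scaling. CDKN1C, the gene of p57, had 58.0, 28.3 and 27.5 normalized counts in Control sh and 45.8, 74.8 and 79.0 in VprBP sh (log2 fold change 0.83, adjusted p = 0.0541). It was called higher without Control sh replicate 1 (1.26), without VprBP sh replicate 1 (1.03) and with library size scaling (1.04), so whether it was called depended on replicate 1 of each group and on the scaling.

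**Figure D3:**
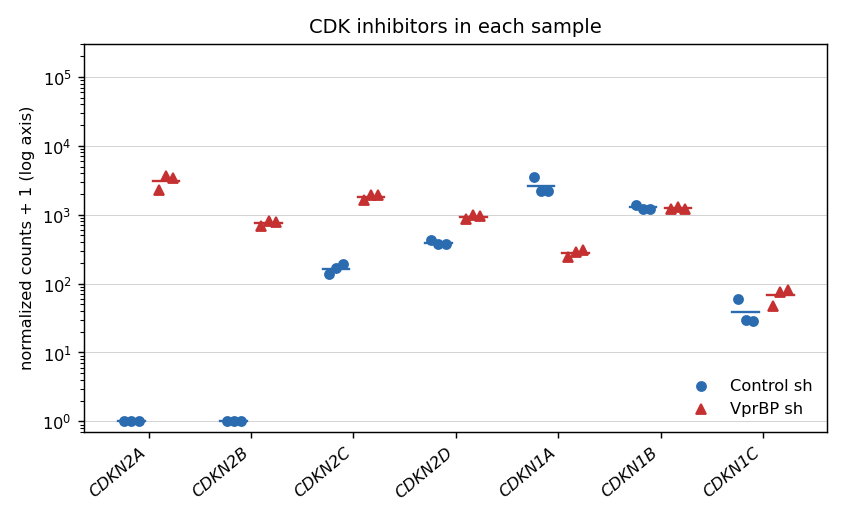
Normalized counts plus 1 (log axis) of the 7 CDK inhibitor genes in each Control sh sample (blue circles) and VprBP sh sample (red triangles), with the group mean as a bar. CDKN2A and CDKN2B are at 0 counts in all 3 Control sh samples and CDKN1A is the only gene called lower in VprBP sh.

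Among the other pocket proteins, E2F factors and their DP partners, 2 of 11 rose, 4 fell and 5 were not called, against 46.4% of all genes called, the median being 0.12 on the log2 scale. E2F2, an activating E2F, had 304, 289 and 271 normalized counts in the Control sh samples and 1502, 1430 and 1521 in the VprBP sh samples, a rise of 5.16-fold (adjusted p = 2.82e-08). E2F3, the third activating E2F, rose 2.42-fold, from 533 ± 99 to 1288 ± 18 (SD, n = 3, adjusted p = 1.31e-05). E2F1 was thus the activating E2F that was not called. E2F7, an atypical repressor, fell from 990 ± 48 to 327 ± 28 (log2 fold change -1.60, adjusted p = 7.00e-07), and RBL1, the gene of the pocket protein p107, fell from 1297 ± 91 to 479 ± 67 (log2 fold change -1.44, adjusted p = 3.43e-06). The other falls, named after their values were seen, were E2F4 (-1.23) and E2F5 (-1.07), both of which encode E2F factors that work with the p107 and p130 pocket proteins; E2F5 was not called without Control sh replicate 1 (-0.90), without VprBP sh replicate 3 (-0.94) or with library size scaling (-0.86). RBL2, the gene of p130, had 2463 ± 111 and 2689 ± 47 normalized counts and was not called (log2 fold change 0.13, adjusted p = 0.148).

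None of the 5 genes of the MuvB core, the part of the DREAM complex that p107 or p130 joins, was called in edgeR, DESeq2 or limma-voom, with a median of 0.55, and 4 of them had an unadjusted p-value under 0.05. Among 8 enzymes that switch the kinases on or off, 1 rose and 1 fell, against 46.4% of all genes called, with a median of -0.40. CCNH, the cyclin subunit of the CDK-activating kinase, rose from 242 ± 23 to 617 ± 83 (SD, n = 3, log2 fold change 1.35, adjusted p = 1.22e-05), while its partners CDK7 (-0.75) and MNAT1 (-0.68) were not called. CDC25B, a phosphatase that activates cyclin-dependent kinases, fell from 15931 ± 296 to 3589 ± 134 (log2 fold change -2.15, adjusted p = 1.19e-08).

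Of 12 genes that set the turnover of G1 cyclins and inhibitors, 4 rose, 1 fell and 7 were not called, against 46.4% of all genes called, with a median of 0.40. USP2, a deubiquitinase known to stabilize cyclin D1, had 18.5, 17.4 and 15.2 normalized counts in the Control sh samples and 250, 288 and 265 in the VprBP sh samples, a rise of 15.7-fold (adjusted p = 6.95e-08). CUL3, the scaffold of a ubiquitin ligase that acts on cyclin E, rose 2.56-fold (adjusted p = 1.52e-06). The other rises, named after their values were seen, were FBXO4 (1.07) and FBXO31 (1.07), both F-box proteins linked to the breakdown of cyclin D1. These 2 sat at the 2-fold limit, since both missed it with TMM factors (0.97 and 0.97) and without VprBP sh replicate 3 (0.97 and 0.99), and FBXO31 also without Control sh replicate 2 (0.98) or VprBP sh replicate 2 (1.00). CKS1B, the cofactor with which SKP2 recognizes p27, fell from 4274 ± 347 to 1429 ± 25 (log2 fold change -1.58, adjusted p = 1.68e-07). SKP2 itself was not called, at -0.99 (adjusted p = 2.50e-05), just under 2-fold, and was called with TMM factors (-1.08), without Control sh replicate 1 (-1.09) and without VprBP sh replicate 1 (-1.07).

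Genes that E2F factors switch on for S phase were read as the downstream end of the pathway. Of 28, 4 rose, 3 fell and 21 were not called, against 46.4% of all genes called, the median being 0.20, and their summed level was 74513 to 89078 normalized counts in the Control sh samples and 77602 to 79530 in the VprBP sh samples. RRM2, a subunit of ribonucleotide reductase, had 1386, 1728 and 1763 normalized counts in the Control sh samples and 8315, 7377 and 7420 in the VprBP sh samples, a rise of 4.74-fold (adjusted p = 9.39e-08). CHEK1, a checkpoint kinase, rose 2.51-fold (adjusted p = 1.29e-06). MCM2, a subunit of the replicative helicase, fell 4.08-fold, from 6561 ± 492 to 1608 ± 182 (SD, n = 3, adjusted p = 1.35e-07), and TK1, thymidine kinase, fell 2.23-fold (adjusted p = 2.84e-06). The members of the list therefore moved in both directions. ORC1 (1.16) and CDT1 (1.07) also rose and MCM4 (-1.03) also fell, these 3 named after their values were seen. CDT1 missed the limit without Control sh replicate 1 (0.98), without VprBP sh replicate 2 (0.96) or 3 (0.99), and with TMM factors (0.97) or DESeq2 (0.95). In a test against a 2-fold change ORC1 (adjusted p = 0.0703) and TK1 (adjusted p = 0.0503) were no longer called, nor were CDT1 and MCM4. MCM4 missed it without Control sh replicate 3 (-0.99), and both MCM4 (-0.82) and TK1 (-0.94) with library size scaling. Of 10 mitotic genes, none was called in edgeR or limma-voom, 6 had an unadjusted p-value under 0.05, and the median was -0.21. AURKA, named after its values were seen, was called lower in DESeq2 (-1.03), with TMM factors (-1.01), without Control sh replicate 1 (-1.03) and without VprBP sh replicate 1 (-1.12).

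**Figure D4:**
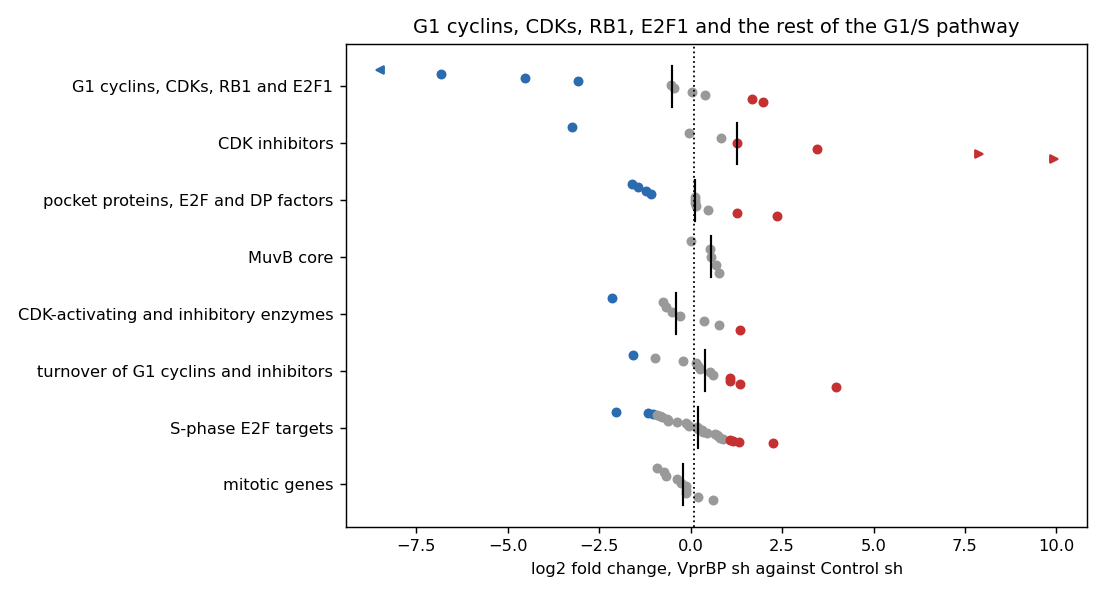
Log2 fold change of VprBP sh against Control sh for the 10 genes and the 7 other pathway lists, 1 point a gene, red for called higher, blue for called lower and grey for not called; triangles are lower bounds for genes at 0 counts in a group, the bar is the median of the list and the dotted line the median of all genes tested (0.08). The points of the MuvB core and the mitotic genes stay within 1 of 0, while the G1 genes and the CDK inhibitors spread from below -8 to above 9.

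Because CDKN2A and CDKN2B, which lie side by side, were both at 0 in Control sh, the protein-coding genes within 500 kb of each gene were read out. Around CDKN2A, all 3 tested neighbours were called higher in VprBP sh, where 24.5% of all genes were. MTAP had 3, 2 and 6 counts in the Control sh samples and 864, 858 and 1205 in the VprBP sh samples. CDKN2B and DMRTA1 had 0 counts in every Control sh sample, MTAP and DMRTA1 being named after their values were seen. All 3 passed the filter on low counts through the VprBP sh samples alone. They could therefore only be called higher, and their count is a description that cannot be weighed against that share. Within 1 Mb, 3 of 6 were called higher and 1 lower. Around RB1, all 6 tested neighbours fell, where 22.0% of all genes were called lower, and their median was -2.60 on the log2 scale. One of them, RCBTB2, had 5, 4 and 8 counts in the VprBP sh samples. It passed the filter on low counts through the Control sh samples alone and could only be called lower, so the count is a description. Within 1 Mb of RB1, 7 of 11 fell, 1 rose and 3 were not called, with a median of -1.70. ITM2B, which ends 33 kb before RB1, fell from 24747 ± 519 to 1918 ± 51 normalized counts (SD, n = 3, log2 fold change -3.69, standard error 0.08). Among the others were RCBTB2 (-5.05), SUCLA2 (-2.45), MED4 (-2.08) and FNDC3A (-1.70), the last 376 kb beyond the gene. The fold change of RB1 was larger than that of any of them, and all of these genes were still detected in VprBP sh.

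Around CCND1, 4 of 6 tested neighbours fell and 2 were not called. Of all genes, 22.0% were called lower and 24.5% higher. LTO1, which overlaps CCND1, fell from 7919 ± 916 to 519 ± 22 normalized counts (log2 fold change -3.93, adjusted p = 3.26e-09), SMIM38 from 314 ± 125 to 0.948 ± 1.051, and ENSG00000287725, which shares its place with SMIM38, from 524 ± 82 to 10.4 ± 4.8. The fourth was FGF19, named after its values were seen, with 41, 74 and 46 counts in the Control sh samples and 0 in the VprBP sh samples. FGF19 and SMIM38 passed the filter on low counts through the Control sh samples alone, so they could only be called lower. The genes not called were ANO1 (0.74) and MYEOV (-0.40), each nearer to CCND1 than SMIM38, so that the stretch did not move as a whole. Around CDK6, 2 of 12 fell, SAMD9 (-3.19) and its paralog SAMD9L (-2.95), which lie side by side and may share reads, and the 10 others, among them those next to CDK6, were not called. Around CCND2, 5 of 9 fell and 1 rose. PARP11 had 0 counts in every VprBP sh sample. DYRK4 had 134, 103 and 141 counts in the Control sh samples and 2, 0 and 6 in the VprBP sh samples. Both passed the filter through the Control sh samples alone and could only be called lower. RAD51AP1 (-1.17) and ENSG00000285901 (-2.25), which overlaps CCND2 on the same strand and may share its reads, also fell. So did AKAP3, named after its values were seen, while TIGAR (1.74), the next gene, rose.

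None of the 4 tested neighbours of CCNE1 was called in edgeR or limma-voom, though 3 had an unadjusted p-value under 0.05 and 1, PLEKHF1, was called in DESeq2, while 4 of 10 around CCNE2 fell, namely DPY19L4 (-1.84), VIRMA (-1.99), RAD54B (-1.41) and FSBP (-1.53), opposite to CCNE2. Around E2F1, 2 of 11 rose and 5 fell, NECAB3 (561 to 1588 normalized counts), PXMP4 (-5.07), ZNF341 (-1.46) and EIF2S2 (-1.22) being among those with at least 100 normalized counts. PXMP4, at 5, 13 and 20 counts in the VprBP sh samples, would not have passed the filter on low counts on those samples alone. Around CDK4, 4 of 23 rose and 5 fell, those with at least 100 normalized counts being AGAP2 (-4.89), ARHGEF25 (-4.28), CYP27B1 (-3.53), MARCHF9 (-1.45) and B4GALNT1. B4GALNT1 had 258, 241 and 303 counts in the Control sh samples and 3, 1 and 0 in the VprBP sh samples. B4GALNT1 was thus at or under the floor of 3 counts there, and no fold is given. It passed the filter through the Control sh samples alone and could only be called lower. AGAP2, at 2, 16 and 16 counts in the VprBP sh samples, would not have passed on those samples alone. Around CDK2, 3 of 37 rose and 5 fell, those with at least 100 being DGKA (-4.04), PAN2 (-1.48), PA2G4 (-1.09), ERBB3 (1.13), SUOX (1.43) and SPRYD4 (1.28). Around CCND3, 5 of 15 fell, MDFI (-2.05), TFEB (-2.61), TRERF1 (-1.54) and C6orf132 (-1.31) being above that level. Over the 10 genes together, 51 of 133 tested neighbours were called, 38.3%, which is below the 46.4% of all genes. The neighbours and all genes alike include some that passed the filter through 1 group alone, so the comparison is a description.

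**Figure D5:**
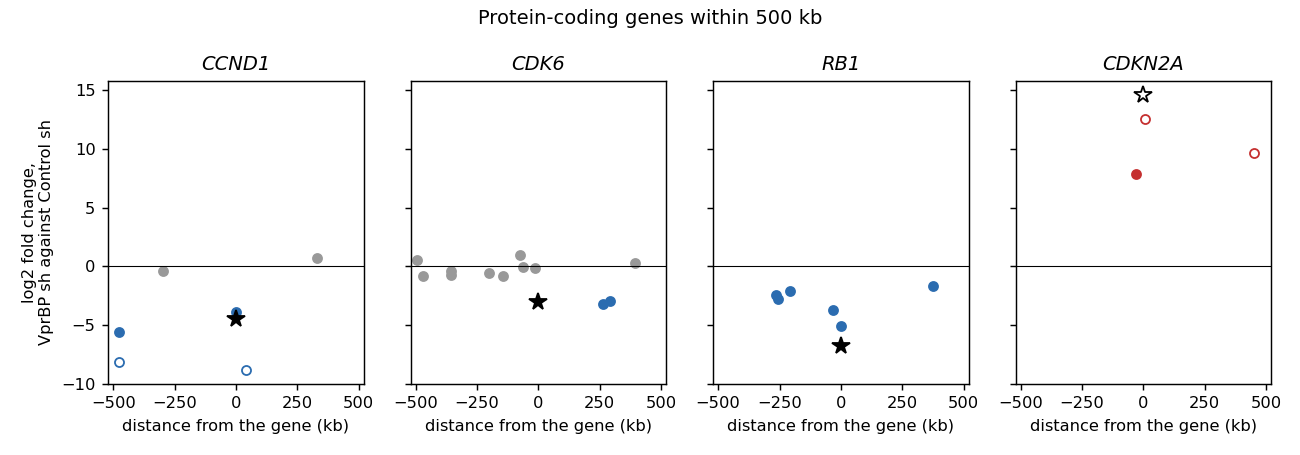
Log2 fold change of VprBP sh against Control sh for each protein-coding gene tested within 500 kb of CCND1, CDK6, RB1 and CDKN2A, by its distance in kilobases along the chromosome (0 for an overlapping gene). Red is called higher, blue called lower, grey not called, open points have at most 3 counts in every sample of a group so that their fitted value depends on the prior count, and the star is the named gene itself. All 6 neighbours of RB1 lie below 0, though RCBTB2 among them passed the filter on low counts through the Control sh samples alone. Most of those of CDK6 lie near 0. All 3 of CDKN2A lie above 0, but they passed the filter on low counts through the VprBP sh samples alone.

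The genes whose pattern over the 6 samples was most like that of each called gene were found by the root mean square difference of log2(normalized counts + 1), each gene centred on its own mean. For CCND1 these were C19orf33 (0.0693) and EFNB1 (0.0699), the latter going from 7860 to 355 normalized counts. For CCND2 they were DLC1 (0.0889) and FHOD3 (0.110), both at 0 in VprBP sh, and for CDK6 they were SEC14L2 (0.0817) and SAMD9 (0.0937), the same SAMD9 that lies near it. CCNE1 was matched by WHRN (0.0558) and ENSG00000271976 (0.0762), and CCNE2 by PBLD (0.0976) and CBR4 (0.101). For RB1 they were LINC02241 (0.0911) and CAV1 (0.109), which went from 25308 to 211 normalized counts. With so many genes differing between the groups, a close match over 6 samples describes mainly the size of the change.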

How the data were processed

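RNA-seq of 3 Control sh and 3 VprBP sh samples was analysed, grouped by sample title. The authors made 50-base single-end reads, aligned them to hg38 with STAR against GENCODE, quantified genes in Partek Flow and deposited estimated counts, neither normalized nor pooled. Of the values, 59.8% were whole numbers. The labels name a SMARTER kit and the methods a strand-specific KAPA kit, and whether strand was used in counting is not given in the sources used here.

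Counts were rounded and tested in edgeR 4.0.16 (R 4.3.3) with upper quartile factors (quantile 0.75, as the study's methods name), its filter on low counts (minimum 10) and the quasi-likelihood test, with no replicate block, in place of Partek's Gene Specific Algorithm. Calls needed both an adjusted p-value (Benjamini-Hochberg) below 0.05 and more than a 2-fold difference. The standard error is the log2 fold change over the square root of F. A fold against a group at 0 was set against 3 counts per sample (2.30 to 3.48 normalized counts), which covers counting error only. The design had been written for counts, and the values proved to be estimated counts. Lengths, overlaps and canonical starts came from GENCODE 44, promoters from RefSeq. Alternatives used TMM, library size, DESeq2 1.42.0, limma 3.58.1 (voom), other filters, a test against a 2-fold change, a replicate block, replicates 2 and 3 summed, and each sample left out. The tests were tried on simulated counts.

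The members and lists were chosen with earlier results of these data known. The text names the 10 genes, DCAF1, all CDK inhibitors, in each other list the 2 largest rises and 2 largest falls of the called genes whose higher group averaged 100 or more normalized counts, the 2 genes most alike in pattern to each called gene, and called neighbours within 500 kb at that level, some of which are counted but not reported by name here. Others are marked, or are markers, overlapping genes or partners that were not called.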

Additional observations from a re-analysis of the deposited data

How the results depend on the processing

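The number of the 10 genes called was 6 under every alternative that tested all of them, the replicate block included (6 called). Requiring 10 counts in every sample left 9 of them to test and called 5, because it removes CCND2. Leaving out 1 sample in turn gave 6 each time. Over the alternatives the share of all genes called ran from 35.8% to 48.6%. Of the other genes in the pathway lists, which hold 7, 11, 5, 8, 12, 28 and 10 tested genes, 25 were called. Leaving out 1 sample gave 21 to 28. Of all genes 46.4% were called, and 46.2% to 47.1% when 1 sample was left out. The 25 include CDKN2A and CDKN2B, which could only be called higher. In edgeR's test against a 2-fold change, applied to these lists after the data had been seen, 18 were called, where 37.4% of all genes were. E2F5, FBXO4, FBXO31, CDT1, ORC1, TK1 and MCM4 were lost. The replicate numbers did not pair the samples, since the deviations from the group means, compared between samples of 1 number, correlated at -0.173, -0.0539 and -0.121 over 12133 genes, and the replicate block changed the call of none of the 10 genes. The log2 fold change of E2F1 changed sign with TMM factors (-0.055), DESeq2 (-0.078) and replicates 2 and 3 summed (-0.027), and ran from -0.046 to 0.18 when 1 sample was left out, the highest value, without VprBP sh replicate 1, passing the p-value threshold (adjusted p = 0.0344) but not 2-fold. That of CDKN1B changed sign with library size scaling (0.17) and ran from -0.075 to 0.019 when 1 sample was left out, the positive value being that without Control sh replicate 1. The cause of these changes was not tested. The within-sample log2 ratio of CCNE2 to CCNE1 differed between groups by -0.74 to 0.023 when 1 sample was left out, the highest value being that without Control sh replicate 3. With a window of 1 Mb, which takes in more genes, 85 of 197 neighbours (43.1%) were called. At that size the windows of CDK2 and CDK4 on chromosome 12 overlap, and a gene in both was counted for each. With 3 samples a group, no single-value permutation test could reach p = 0.05, and the level of RB1 in VprBP sh rests on 15 to 29 counts.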
